A study of Mus musculus with 15 samples.

Results

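The 10 genes described here are the bone morphogenetic protein (BMP) ligands Bmp2, Bmp4, Bmp5, Bmp6 and Bmp7 and the receptors Bmpr1a, Bmpr1b, Acvr1, Acvrl1 and Bmpr2. They were taken by name from a table of 28876 Ensembl genes, and each name matched 1 row. RNA was sequenced from the aorta-gonad-mesonephros (AGM) region of C57BL/6 mouse embryos, the site where the first definitive hematopoietic stem cells (HSCs) mature beside the dorsal aorta. At E9.5 the region was cut into its dorsal part (E9 AoD) and ventral part (E9 AoV), and at E10.5 into the dorsal part (E10 AoD), the ventral part (E10 AoV) and the urogenital ridges (E10 UGR). Each of the 5 groups held 3 libraries from 3 separate experiments, and each library was made from tissue of 15 to 34 pooled embryos, so the spread between libraries is that between pools and not between single embryos. The labels name no treatment and no mutation for any group. All 10 genes passed the filter for testing, as did 18553 genes in all.

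BMPs are secreted dimers of the TGF-β superfamily. A ligand brings together type I receptors and type II receptors, both serine/threonine kinases, and the type II receptor activates the type I receptor, which then phosphorylates SMAD1, SMAD5 and SMAD9 so that they enter the nucleus with SMAD4. BMP2 and BMP4 form one pair of close relatives and BMP5, BMP6 and BMP7 another group, and in the embryo BMP4 is known as a ventralizing factor of mesoderm that is expressed beneath the dorsal aorta at the time HSCs appear. Of the receptors, BMPR1A (ALK3) and BMPR1B (ALK6) bind BMP2 and BMP4 with high affinity, ACVR1 (ALK2) is a main type I receptor for BMP6 and BMP7, ACVRL1 (ALK1) is the endothelial receptor for BMP9 and BMP10, and BMPR2 is the dedicated BMP type II receptor.

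The levels of the 10 genes fell into several patterns. Bmp4, Bmp5 and Bmp6 were higher ventrally than dorsally at both stages and highest in E10 AoV. Bmp2, Bmpr1b and Acvrl1 changed with stage in unlike ways in the dorsal and ventral tissue, with Bmp2 moving from the ventral to the dorsal side, and Bmp7 was highest in E10 UGR and lowest in E10 AoV. Bmpr1a, Acvr1 and Bmpr2 rose with stage on both sides. Values are reads per 1000000 reads assigned to genes (RPM), as the authors deposited them, and differences are log2 fold changes of log2(RPM + 0.1) from limma with their standard errors (SE), where p-values are adjusted over all 18553 genes. A gene passed at an adjusted p below 0.05 and was called when the fold change was also at least 2. In tissue pools, fewer cells of a type and less RNA per cell cannot be told apart.

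**Figure D1:**
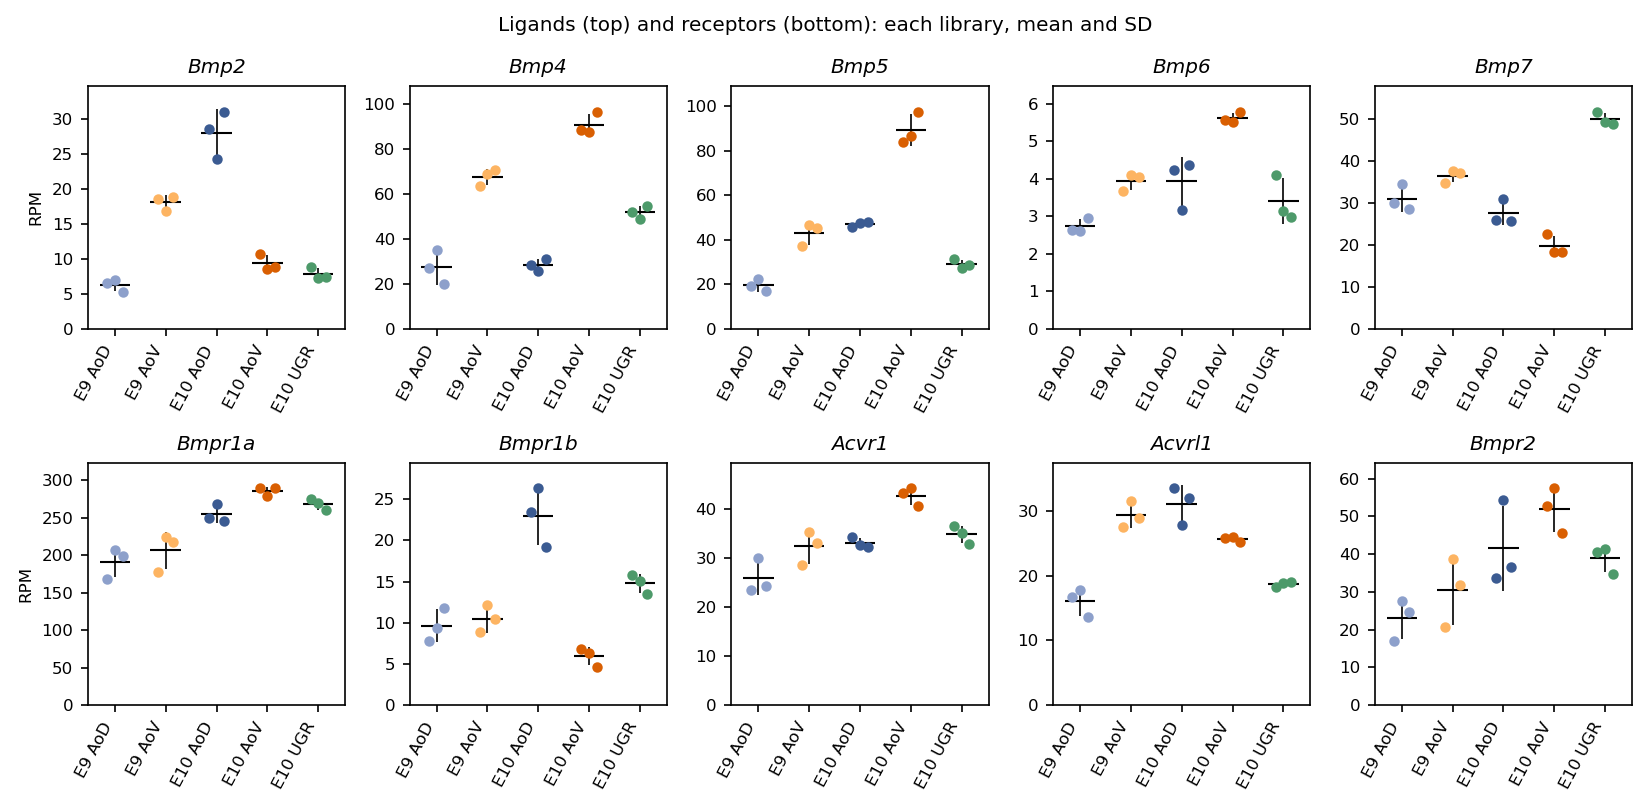
Level of each gene in RPM (linear axis from 0, scaled per gene) in every library of the 5 groups, with points for the 3 libraries, a line for the mean and a bar for the SD. Bmp4 and Bmp5 reached 87.9 to 96.6 and 83.8 to 97.3 RPM in E10 AoV, above every library of the other groups, whereas Bmp2 and Bmpr1b were highest in E10 AoD and Bmp7 in E10 UGR.

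Depth, worked out from the smallest step between low values, was about 33620000 to 48540000 reads per library, and libraries of a group correlated at r = 0.993 to 0.997 across genes. Bmp6, the gene with the fewest reads, still rested on about 97 to 248 reads per library, and Bmpr1a on 6817 to 13057, a precision that covers counting error only. The tissue labels were checked against marker lists: the 9 nephric genes summed to 433 to 443 RPM in E10 UGR and to no more than 128 RPM elsewhere, and the 13 endothelial genes were found in every group, at 445 to 958 RPM in sum. Somite and sclerotome genes (8 genes) summed to 617 to 786 RPM in E10 AoD against 38.9 to 46.2 RPM in E10 AoV. In E9 AoV 10 genes of gut endoderm and liver summed to 607 to 834 RPM and 6 genes of gut mesenchyme to 403 to 443 RPM, against at most 131 and 198 RPM elsewhere. The 7 coelomic and gonadal genes reached 749 to 806 RPM in E10 AoV and 612 to 683 RPM in E10 UGR, against at most 210.1 RPM elsewhere.

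RefSeq promoter windows (build GRCm38.p6, 250 bases before the start) were found for 7 of the 10 genes, namely Bmp4, Bmp5, Bmp6, Bmpr1a, Bmpr1b, Acvr1 and Bmpr2, and not for Bmp2, Bmp7 and Acvrl1. The windows of 4 genes are shown because their genes carry the contrasts below: Bmp4 and Bmp5 were ventral at both stages, Bmpr1b was the receptor with the widest range, and Bmpr1a was the most abundant receptor per length. They lie at chr14:46390670-46390919 (minus strand), chr9:75775115-75775364 (plus strand), chr14:34502547-34502796 (minus strand) and, for the most upstream of the 3 Bmpr1b starts, chr3:141982265-141982514 (minus strand). Letters run 5′ to 3′ toward the gene, and capitals mark matches on either strand to any of 4 motifs. These were GGCGCC, a GC-rich element bound by SMAD1 and SMAD5 that reads the same on both strands. The other three were AGATAA, the site of GATA factors, then TATAAA, the core of the TATA box, and the motif CCAAT of the CCAAT box.
Bmp4: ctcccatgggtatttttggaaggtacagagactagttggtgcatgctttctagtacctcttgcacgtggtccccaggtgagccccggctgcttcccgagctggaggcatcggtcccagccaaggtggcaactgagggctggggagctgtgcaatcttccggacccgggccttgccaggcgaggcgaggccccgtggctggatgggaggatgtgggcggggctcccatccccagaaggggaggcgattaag
Bmp5: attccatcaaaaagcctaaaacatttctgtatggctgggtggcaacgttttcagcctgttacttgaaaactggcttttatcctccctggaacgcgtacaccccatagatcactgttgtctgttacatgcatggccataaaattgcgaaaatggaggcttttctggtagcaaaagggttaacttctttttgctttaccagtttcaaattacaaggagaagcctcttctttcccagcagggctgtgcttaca
Bmpr1a: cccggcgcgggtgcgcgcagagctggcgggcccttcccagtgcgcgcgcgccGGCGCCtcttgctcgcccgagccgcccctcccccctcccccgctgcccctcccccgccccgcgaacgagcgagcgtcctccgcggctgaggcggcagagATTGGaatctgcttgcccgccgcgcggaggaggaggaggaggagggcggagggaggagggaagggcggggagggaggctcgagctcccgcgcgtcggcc
Bmpr1b: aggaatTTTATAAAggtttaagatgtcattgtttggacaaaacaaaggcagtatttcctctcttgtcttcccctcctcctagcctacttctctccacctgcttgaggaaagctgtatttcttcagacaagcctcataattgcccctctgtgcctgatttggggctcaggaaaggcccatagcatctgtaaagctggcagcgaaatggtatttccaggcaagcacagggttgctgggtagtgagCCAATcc
The Bmp4 and Bmp5 windows held none of the 4 motifs. The GGCGCC element stood once in the Bmpr1a window and once in that of Bmpr2 (chr1:59764029-59764278, plus strand) and in none of the other member windows, beside 9.59% of 32851 windows of all genes. The Bmpr1b window shown held TATAAA on both strands in overlapping letters, at the end farthest from the gene, and CCAAT once. These motifs were present in 12.4% and 33.8% of all windows. The windows of the other Bmpr1b starts (chr3:141931421-141931670 and chr3:141931589-141931838, minus strand) held none of the 4 motifs. The Bmpr1a window held CCAAT once on the reverse strand. AGATAA, found in 9.99% of all windows, was in no member window. These are matches of letters and not sites of binding.

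Bmp4 (chr14:47003195-47010344 of NCBIM37, minus strand) had the highest mean level per length of the ligands in every group. Its level was 63.6, 69.0 and 70.6 RPM in E9 AoV against 26.9, 35.2 and 19.7 RPM in E9 AoD, and 88.4, 87.9 and 96.6 RPM in E10 AoV against 28.5, 25.5 and 31.1 RPM in E10 AoD. Every ventral library lay above every dorsal library. The difference between ventral and dorsal tissue was 1.35 (SE 0.144, adjusted p = 2.47e-06, limma) at E9.5 and 1.68 (SE 0.144, adjusted p = 3.05e-07) at E10.5 on the log2 scale, which are 2.55-fold and 3.21-fold higher levels. The ventral rise with stage was small, 1.34-fold (log2 0.43, adjusted p = 0.026, limma), and did not pass without E9 AoV replicate 1 (adjusted p = 0.0785), without E10 AoV replicate 3 (0.082) or with all genes tested (0.0588). In the dorsal tissue the 2 stages overlapped (log2 0.09, adjusted p = 0.609, limma), and this value moved with single libraries of E9 AoD, being 0.30 (adjusted p = 0.037) without replicate 2 and -0.12 (adjusted p = 0.345) without replicate 3. The 2 stage changes of Bmp4 differed by 0.33 (adjusted p = 0.261), or by 0.55 without E9 AoD replicate 3 (adjusted p = 0.0105, limma). In E10 UGR the level was 52.2, 49.0 and 54.8 RPM, between the dorsal and ventral tissue and apart from both, with E10 AoV higher by 0.81 on the log2 scale (adjusted p = 0.000584, limma). The gut lists were highest in E9 AoV and the coelomic list in E10 AoV, and their part in the ventral levels of Bmp4 was not tested.

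Bmp5 (chr9:75623171-75748117, plus strand) was ventral as well, but unlike Bmp4 it also rose dorsally with stage. At E9.5 it stood at 19.3, 22.2 and 16.7 RPM dorsally and at 37.0, 46.5 and 45.0 RPM ventrally. The E10 AoD libraries held 45.5, 47.3 and 47.7 RPM. In E10 AoV it reached 83.8, 86.6 and 97.3 RPM. The E10 AoV libraries did not overlap any other group, while those of E9 AoV and E10 AoD overlapped and did not differ beyond their spread (log2 0.14 between them, adjusted p = 0.301, limma). With stage, Bmp5 rose 2.09-fold ventrally (log2 1.06, SE 0.101, adjusted p = 8.16e-07) and 2.42-fold dorsally (log2 1.28, SE 0.101, adjusted p = 8.06e-08, limma), and the ventral level was 2.21-fold higher at E9.5 and 1.90-fold at E10.5. The 2 stage changes differed by -0.22 and this did not pass (adjusted p = 0.301, limma). The ventral stage difference lay at the edge of the 2-fold threshold and fell under it without E9 AoV replicate 1 (log2 0.96) or E10 AoV replicate 3 (log2 0.997). Against E10 UGR (31.1, 27.1 and 28.7 RPM), E10 AoV was 3.07-fold higher. In the annotation 1878 exonic bases of Bmp5, 46.7% of its exons, are shared with the antisense lincRNA AC079245.2, which was also the gene nearest to it in pattern. AC079245.2 ran from 2.28 ± 0.381 RPM in E9 AoD to 10.1 ± 0.76 RPM in E10 AoV (SD, n = 3). Strand-specific counting was not stated, so reads of the pair cannot be told apart.

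Bmp6 (chr13:38436995-38592183, plus strand) followed Bmp5 at the lowest level per length of the 5 ligands. At E9.5 it was 2.64, 2.61 and 2.96 RPM dorsally against 3.66, 4.09 and 4.05 RPM ventrally, and at E10.5 it was 4.24, 3.17 and 4.37 RPM dorsally against 5.57, 5.52 and 5.78 RPM ventrally. E10 AoV was again above every other library, and E10 UGR (4.10, 3.15 and 2.97 RPM) overlapped E10 AoD. The 4 differences with stage or position were near 1.4-fold: 0.51 for E10 AoV against E9 AoV (adjusted p = 0.00624), 0.52 against E10 AoD (adjusted p = 0.00664), 0.49 for the dorsal rise (adjusted p = 0.00547) and 0.51 for E9 AoV against E9 AoD (adjusted p = 0.00571, limma). The latter 2 did not pass after quantile normalization (0.31, adjusted p = 0.0723, and 0.28, adjusted p = 0.104). Across the 15 libraries log2 levels of Bmp5 and Bmp6 correlated at r = 0.917, the highest value between 2 ligands. Txndc5, on the other strand and at 213 to 275 RPM, shares 236 exonic bases with Bmp6, which are 6.58% of the Bmp6 exons. Txndc5 was named for this overlap after its values were seen. At E10.5 it differed by -0.014 between the ventral and dorsal tissue (adjusted p = 0.81, limma). It was lower by 0.17 in E10 AoV than in E9 AoV (adjusted p = 0.00151, limma). In the direction of Bmp6, it was higher by 0.20 in E9 AoV than in E9 AoD (adjusted p = 0.000496, limma). It was also higher by 0.18 in E10 AoV than in E10 UGR (adjusted p = 0.00156, limma). Its dorsal change with stage was 0.038 (adjusted p = 0.397, limma). The counting summed reads that overlapped a gene, and whether it used strand was not stated.

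Bmp2 (chr2:133377895-133388621, plus strand), a growth factor of heart, bone and vessel development, was the ligand whose side changed. At E9.5 it was 6.54, 6.96 and 5.22 RPM dorsally against 18.5, 16.8 and 18.9 RPM ventrally. At E10.5 it was 28.6, 24.3 and 31.0 RPM dorsally against 10.7, 8.59 and 8.78 RPM ventrally. No pair of these groups overlapped. Ventral tissue was therefore 2.88-fold higher at E9.5 (log2 1.53, SE 0.123, adjusted p = 1.37e-07) and 2.97-fold lower at E10.5 (log2 -1.57, SE 0.123, adjusted p = 1.21e-07, limma). Dorsally Bmp2 rose 4.44-fold with stage (log2 2.15, adjusted p = 3.96e-09), the largest change of any of the 10 genes between those groups, and ventrally it fell 1.93-fold (log2 -0.95, adjusted p = 1.88e-05, limma). The test of the difference between the 2 stage changes gave -3.10 (SE 0.174, adjusted p = 2.53e-08, limma). In E10 UGR (8.83, 7.28 and 7.43 RPM) Bmp2 overlapped E10 AoV and the groups did not differ beyond their spread (adjusted p = 0.148, limma). The gut lists were highest in E9 AoV, and the somite list and 6 genes of neural crest and sympathetic neurons in E10 AoD. The part of these lists in the level of Bmp2 was not tested. Per length, Bmp4 stood 6.90 ± 1.06 times above Bmp2 in E9 AoD and 6.01 ± 0.536 times in E9 AoV, but 1.62 ± 0.046 times in E10 AoD and 15.7 ± 2.26 times in E10 AoV (SD, n = 3).

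Bmp7 (chr2:172693513-172765822, minus strand), a ligand required for kidney development, was at 51.7, 49.4 and 48.9 RPM in E10 UGR. At E9.5 it was 30.1, 34.5 and 28.5 RPM dorsally and 34.8, 37.6 and 37.2 RPM ventrally, and E10 AoD held 25.9, 30.9 and 25.8 RPM. In E10 AoV it was 22.5, 18.2 and 18.3 RPM, below every other library. E10 AoV was 2.55-fold lower than E10 UGR (log2 -1.35, SE 0.0921, adjusted p = 5.55e-08), 1.86-fold lower than E9 AoV (log2 -0.90, adjusted p = 1.77e-06) and 1.40-fold lower than E10 AoD (log2 -0.49, adjusted p = 0.000699, limma). The dorsal change with stage was -0.17 and did not pass (adjusted p = 0.123), being -0.26 without E10 AoD replicate 2 (adjusted p = 0.0307), and the 2 stage changes differed by -0.72 (SE 0.13, adjusted p = 0.000685, limma). At E9.5 the ventral level was 1.18-fold higher (log2 0.24, adjusted p = 0.045, limma), which did not pass in 12 of 23 alternatives (adjusted p up to 0.171), among them without E9 AoD replicate 1 or 3 or E9 AoV replicate 2 or 3. All 9 nephric marker genes were lower in E10 AoV than in E10 UGR, and 8 of 9 were lower in E10 AoD, with none at 0 in a whole group. Unlike Bmp7, 7 of these genes were higher in E10 AoV than in E10 AoD and 1 was lower (median 1.40). For the difference between the stage changes 6 of them passed as positive and 1 as negative (median 2.06). Their part in the level of Bmp7 was not tested.

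**Figure D2:**
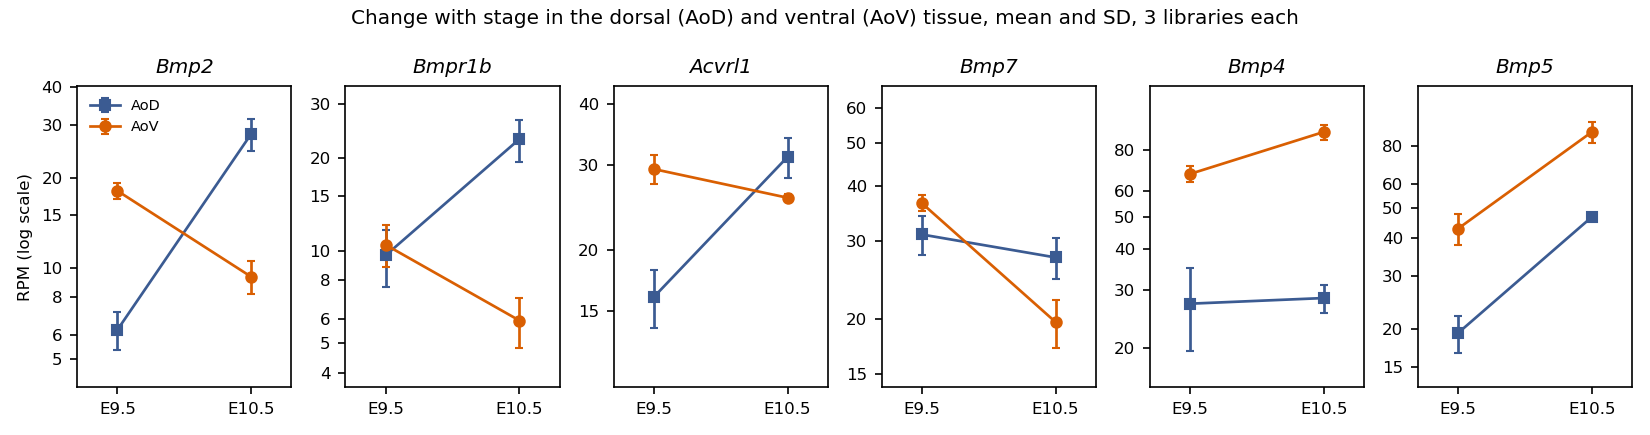
Mean level (RPM, log axis scaled per gene) with SD over 3 libraries at E9.5 and E10.5 in the dorsal tissue (AoD, squares) and ventral tissue (AoV, circles) for 6 genes. The lines cross for Bmp2, Bmpr1b, Acvrl1 and Bmp7, where the stage changes differed by -3.10, -2.07, -1.15 and -0.72 on the log2 scale, and run side by side for Bmp5.

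Among the receptors Bmpr1b (chr3:141500100-141832389, minus strand), a type I receptor known from cartilage condensations, had the widest range. It did not differ beyond the spread at E9.5, with 7.74, 9.40 and 11.8 RPM in AoD and 8.84, 12.1 and 10.4 RPM in AoV (log2 0.12, adjusted p = 0.583, limma). At E10.5 it was 23.5, 26.3 and 19.2 RPM in AoD, 15.8, 15.1 and 13.5 RPM in UGR and 6.80, 6.32 and 4.68 RPM in AoV, and these 3 groups did not overlap. Bmpr1b rose 2.39-fold dorsally (log2 1.25, SE 0.17, adjusted p = 1.79e-05) and fell 1.76-fold ventrally (log2 -0.81, SE 0.17, adjusted p = 0.00125), so that E10 AoV was 3.84-fold lower than E10 AoD (log2 -1.94, adjusted p = 3.68e-07, limma). The stage changes differed by -2.07 (SE 0.24, adjusted p = 1.62e-05, limma). Several marker lists differed between the same groups. The 6 genes of neural crest and sympathetic neurons summed to 307 to 352 RPM in E10 AoD and to 45.9 to 68.4 RPM in E10 AoV, against 63.7 to 73.7 RPM dorsally and 30.6 to 33.9 RPM ventrally at E9.5, and all 6 had a negative difference between the stage changes that passed (median -1.43). The somite and sclerotome list was lower ventrally in 7 of its 8 genes at each stage, with 57.2 to 82.4 RPM in E9 AoV against 462 to 491 RPM in E9 AoD in sum, and 3 of 8 passed with a negative difference between the stage changes (median -0.091). The 9 smooth muscle genes summed to 194 to 300 RPM dorsally and 583 to 587 RPM ventrally at E9.5 and to 863 to 1039 and 948 to 1007 RPM at E10.5, with 8 of 9 negative for that difference (median -1.13). Of 11 neural tube genes 10 were lower ventrally at E9.5 and 8 at E10.5. Unlike Bmpr1b, 7 of the 11 passed with a positive difference between the stage changes and none with a negative one (median 1.55). The part of these lists in the Bmpr1b differences was not tested.

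Acvrl1 (chr15:100958953-100975767, plus strand) was lowest in E9 AoD, at 16.7, 17.8 and 13.6 RPM. It stood at 27.6, 31.6 and 29.0 RPM in E9 AoV. At E10.5 it was 33.5, 27.8 and 32.1 RPM dorsally and 25.8, 26.0 and 25.2 RPM ventrally, with E10 UGR at 18.2, 18.9 and 19.0 RPM. E9 AoD and E10 UGR thus lay below the other 3 groups without overlap. The E9 AoV level was 1.84-fold above E9 AoD (log2 0.88, SE 0.0904, adjusted p = 1.64e-06) and E10 AoD 1.94-fold above E9 AoD (log2 0.96, SE 0.0904, adjusted p = 4.88e-07, limma). The ventral change with stage was -0.19 (adjusted p = 0.0959), and the stage changes differed by -1.15 (SE 0.128, adjusted p = 1.04e-05, limma). At E10.5 ventral tissue was 1.21-fold lower than dorsal (log2 -0.27, adjusted p = 0.0284, limma), which did not pass without E10 AoD replicate 1 or 3 or any single E10 AoV library (adjusted p up to 0.121).

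The endothelial list moved alongside Acvrl1 in part. For the difference between the stage changes 11 of the 13 genes in this list passed, all negative (median -0.62 over the list). These 13 genes, which do not include Acvrl1, summed to 445 to 585 RPM in E9 AoD and to 835 to 884 RPM on the ventral side. At E10.5 the sums were 846 to 932 RPM dorsally, 907 to 958 RPM ventrally and 675 to 716 RPM in the ridges, and all 13 were higher in E9 AoV than in E9 AoD. Relative to this sum Acvrl1 was 3.08% ± 0.0565 dorsally and 3.45% ± 0.137 ventrally at E9.5, and at E10.5 it was 3.46% ± 0.18 dorsally, 2.75% ± 0.0329 ventrally and 2.67% ± 0.127 in the ridges (SD, n = 3), so relative to the list the range was narrower than that of its RPM. Eng, the endothelial co-receptor of ACVRL1, ran at 30.6, 31.6 and 26.9 RPM dorsally and 39.0, 40.4 and 39.8 RPM ventrally at E9.5. At E10.5 it ran at 53.7, 42.2 and 49.5 RPM dorsally and 43.6, 45.7 and 39.6 RPM ventrally. Its stage changes differed between the sides by -0.59 (SE 0.116, adjusted p = 0.00138, limma). The part of endothelial content in the Acvrl1 differences was not tested.

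Bmpr1a (chr14:35223920-35316527, minus strand), the broadly expressed type I receptor, had the highest mean level per length of the 10 genes in every group. At E9.5 it was 168, 207 and 199 RPM dorsally and 178, 224 and 217 RPM ventrally. At E10.5 it was 249, 268 and 246 RPM dorsally, 289, 279 and 289 RPM ventrally and 275, 269 and 260 RPM in the ridges. Every E10.5 library was above every E9.5 library. The rise with stage was 1.39-fold ventrally (log2 0.48, SE 0.0825, adjusted p = 0.000266) and 1.33-fold dorsally (log2 0.42, SE 0.0825, adjusted p = 0.000564), while neither dorsal-ventral difference passed (adjusted p = 0.31 at E9.5 and 0.132 at E10.5, limma). At E9.5 the ventral library was above the dorsal one of the same number in 3 of 3 pairs, and a paired fit of these 2 groups, added after the data were seen, gave 0.11 (adjusted p = 0.018, limma). Without E9 AoV replicate 1 the E9.5 difference was 0.21 (adjusted p = 0.0265), and with only the groups compared the E10.5 difference of 0.17 passed (adjusted p = 0.0179, limma).

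Acvr1 (chr2:58241055-58419568, minus strand) rose to a similar degree and was also slightly ventral. The E9.5 libraries held 23.4, 30.0 and 24.3 RPM dorsally and 28.5, 35.3 and 33.1 RPM ventrally. Those of E10.5 held 34.2, 32.7 and 32.2 RPM dorsally, 43.1, 44.1 and 40.6 RPM ventrally and 36.4, 35.0 and 32.9 RPM in the ridges. E10 AoV was above all other libraries, and the 2 E9.5 groups overlapped. Stage changes were 1.32-fold ventrally and 1.28-fold dorsally (adjusted p = 0.00195 and 0.00325), and ventral levels were 1.25-fold higher at E9.5 and 1.29-fold at E10.5 (adjusted p = 0.00849 and 0.00495, limma). With only the groups compared in the fit, the E9.5 difference did not pass (adjusted p = 0.0604), and with the same groups paired it did (0.00252, limma).

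Bmpr2 (chr1:59821481-59927703, plus strand), the type II receptor, varied widely between libraries of a group, with a coefficient of variation of 9.17% to 30.2%. At E9.5 it was 16.9, 27.6 and 24.7 RPM dorsally and 20.6, 38.8 and 31.8 RPM ventrally. At E10.5 it was 33.6, 54.4 and 36.6 RPM dorsally, 52.8, 57.4 and 45.6 RPM ventrally and 40.6, 41.3 and 34.8 RPM in the ridges. It rose 1.76-fold ventrally (log2 0.81, SE 0.226, adjusted p = 0.00868) and 1.79-fold dorsally (log2 0.84, SE 0.226, adjusted p = 0.00512, limma), with no overlap between stages on either side. The dorsal-ventral differences of 0.38 and 0.35 did not pass (adjusted p = 0.187 and 0.26, limma), and without E9 AoV replicate 1 the E9.5 one was 0.63 (adjusted p = 0.0227). At E9.5 each ventral library was above the dorsal one of the same number, and in the paired fit of these 2 groups the difference of 0.38 passed (adjusted p = 0.0012, limma). Replicate 1 was the lowest library of both E9.5 groups for Bmpr1a, Acvr1 and Bmpr2, and it also had the highest share of reads from 7 erythroid genes, 0.873% against 0.385% and 0.532% in E9 AoD and 1.41% against 0.298% and 0.846% in E9 AoV. The part of these reads was not tested.

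**Figure D3:**
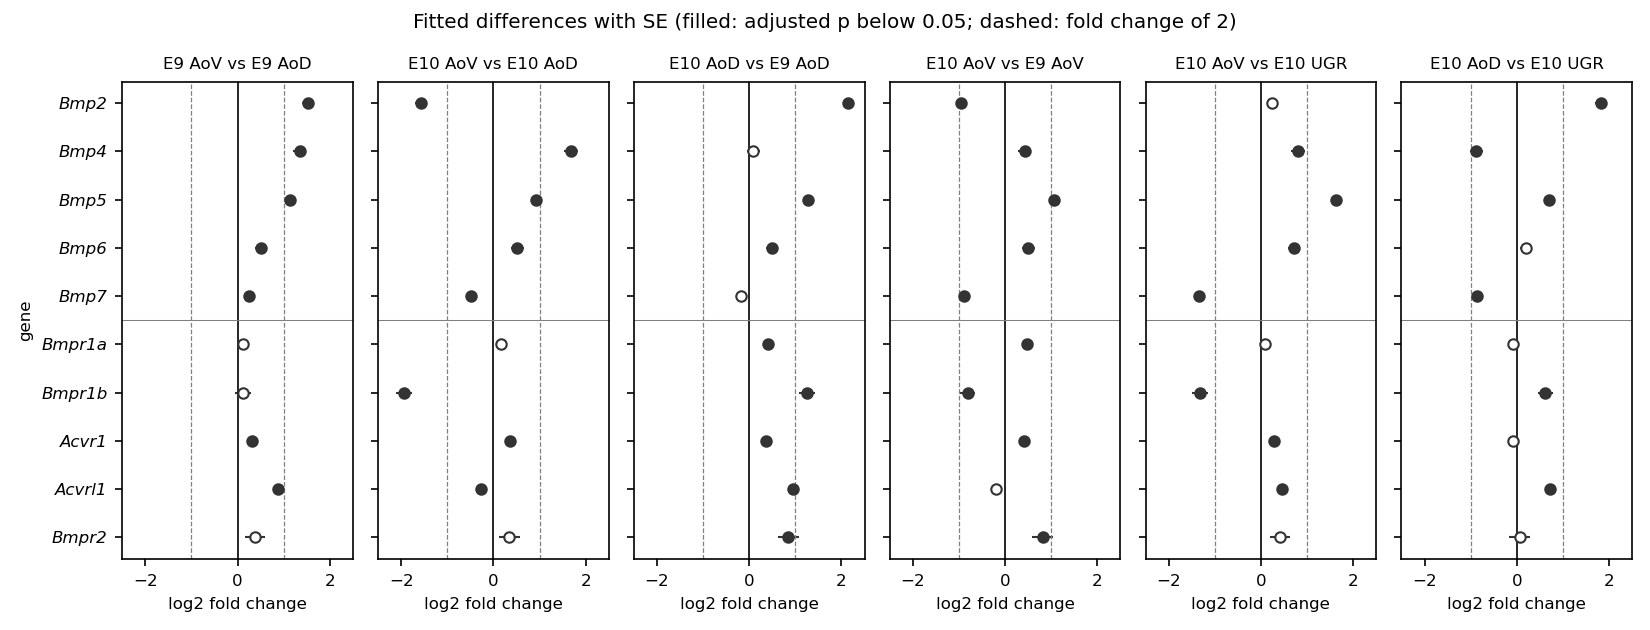
Fitted log2 fold change (x axis) of each gene (y axis, ligands above the grey line and receptors below) in 6 comparisons, with the SE as a bar, filled points at an adjusted p below 0.05 and dashed lines at a fold change of 2. Bmp4 lay beyond 2-fold to the ventral side at both stages (1.35 and 1.68), whereas Bmp2 turned from 1.53 to -1.57.

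Counted over the comparisons, which share groups and so are not independent, 9 of the 10 genes passed in E10 AoV vs E9 AoV, 6 higher and 3 lower, where 46% of all tested genes passed (23.6% higher and 22.4% lower). Only Bmp5 was called there, beside 11% of all genes. In E10 AoV vs E10 AoD 8 passed, 4 each way (35.5% of all genes, 20.2% higher and 15.3% lower), and Bmp4, Bmp2 and Bmpr1b were called (10.1%). In the dorsal tissue 8 rose with stage and none fell (57.8% of all genes passed, 30% higher and 27.9% lower), with Bmp2, Bmp5 and Bmpr1b called (12.6%). In E9 AoV vs E9 AoD 7 passed, all higher (47.7% of all genes, 27.5% higher and 20.1% lower), with Bmp2, Bmp4 and Bmp5 called (11.8%). These shares are of the unpaired fit. In the paired fit 9 passed, with Bmpr1a and Bmpr2 added, but its share of all genes passing was not worked out, so this count has no background. The median log2 fold change of the 10 genes was 0.41, 0.26, 0.67 and 0.44 in these 4 comparisons, beside medians of -0.0016, 0.017, -0.0019 and 0.018 over all genes. For the difference between the stage changes 4 of 10 passed, all negative (28.1% of all genes, 11.8% positive and 16.3% negative), and Bmp2, Bmpr1b and Acvrl1 were called (11%).

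Against the urogenital ridges, 7 genes passed for E10 AoV, 5 higher and 2 lower (29.1% of all genes, 12.5% higher and 16.6% lower), and Bmp5, Bmp7 and Bmpr1b were called (7.57%). For E10 AoD 6 passed, 4 higher and 2 lower (39.2% of all genes, 14.5% higher and 24.8% lower), with Bmp2 called at 3.53-fold (11.3%). Bmp2, Bmpr1b and Acvrl1 were thus higher in E10 AoD than in E10 UGR by 1.82, 0.62 and 0.73 on the log2 scale (adjusted p = 2.16e-08, 0.00866 and 1.18e-05, limma), while Bmp4 and Bmp7 were lower by 1.83-fold and 1.82-fold. The 3 libraries of one group lay apart from the 3 of the other for 10, 9, 8 and 6 genes in the 4 comparisons within the aorta, in the order above, and for 9 and 6 against the ridges, beside 55%, 49.5%, 60.7%, 51.3%, 48.6% and 50.9% of all tested genes. Placing the 5 groups of each gene in order of their means gave 40 pairs of neighbours, of which 21 differed beyond the spread (limma) and 19 did not. The pairs were formed from the same means that were compared, and the share over all genes was not worked out. This count therefore has no background and only describes the order of the groups.

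Levels between genes were compared per kb of exon. The 5 ligands together reached 27.3 ± 5.12 RPM per kb dorsally and 56.4 ± 3.23 ventrally at E9.5, and 40.2 ± 1.82 dorsally, 72.2 ± 3.58 ventrally and 46.2 ± 1.94 in the ridges at E10.5 (SD, n = 3). Bmp4 made up 44.3%, 54.0%, 31.7%, 56.7% and 50.6% of these sums in that order, Bmp5 17.7%, 18.8%, 29.0%, 30.7% and 15.6%, and Bmp7 28.6%, 16.1%, 17.1%, 6.80% and 27.0%. The share of Bmp2 was highest in E10 AoD, at 19.5% ± 1.60, and lowest in E10 AoV, at 3.66% ± 0.532, and Bmp6 stayed between 1.95% and 2.88%. E10 AoV was thus mainly Bmp4 and Bmp5, while E10 AoD held 4 ligands with shares of 17.1% to 31.7%. In E10 AoD replicate 2 Bmp5 stood above Bmp4, at 30.4% against 29.7%.

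**Figure D4:**
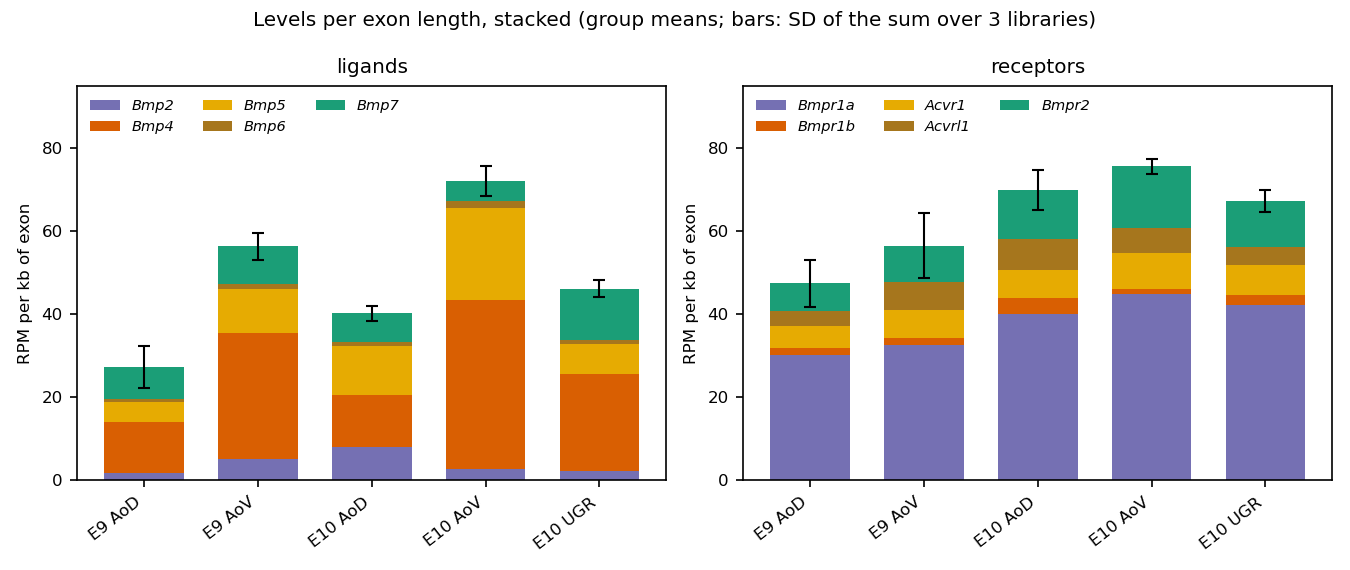
Level per kb of exon (RPM per kb, linear axis from 0), stacked over the 5 ligands (left) and the 5 receptors (right) for each group, with the SD of the sum over 3 libraries as a bar. The ligand sum was 72.2 in E10 AoV against 40.2 in E10 AoD, and the receptor sums, with Bmpr1a as the largest part, were 75.6 and 69.9.

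The receptor sums were closer to each other, 47.4 ± 5.63, 56.5 ± 7.88, 69.9 ± 4.81, 75.6 ± 1.75 and 67.4 ± 2.61 RPM per kb in the same order (SD, n = 3). Bmpr1a gave 57.4% to 63.6% of them, whereas Bmpr1b gave 5.50% ± 0.578 in E10 AoD and 1.31% ± 0.219 in E10 AoV. The ratio of Bmpr1a to Bmpr1b per length was therefore 10.51 ± 1.33 dorsally, 46.4 ± 10.02 ventrally and 17.0 ± 0.914 in the ridges at E10.5. In E9 AoV Bmpr1a stood at 32.5 ± 3.90 RPM per kb, within the spread of the ligand Bmp4 at 30.5 ± 1.65 (SD, n = 3). The annotated Bmpr2 model has 3507 bases in 1 transcript, so its level per length depends on how complete that model is.

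The other genes of the pathway are counted by list, beside 23.6% of all tested genes that rose and 22.4% that fell from E9 AoV to E10 AoV, and 20.2% that were higher and 15.3% lower in E10 AoV vs E10 AoD. In that order the medians over all genes were -0.0016 and 0.017. First, 21 extracellular antagonists and modulators were tested, of which 12 rose and 5 fell from E9 AoV to E10 AoV. In E10 AoV vs E10 AoD 10 were higher and 3 lower, and the median log2 fold change was 0.47 and 0.39. The largest rise with stage in this list was that of Bmper, a secreted modulator that binds BMPs, with 6.86, 8.12 and 7.68 RPM in E9 AoV and 90.1, 90.5 and 93.5 RPM at E10.5 (log2 3.58, SE 0.182, adjusted p = 2e-09, limma), with 41.0, 42.0 and 45.1 RPM in E10 AoD. Nog, the antagonist noggin, was 10.2, 9.46 and 11.7 RPM in E10 AoV against 5.12, 4.79 and 5.42 RPM in E10 AoD (log2 1.01, adjusted p = 2.27e-05, limma). Of the groups given here, both were highest in E10 AoV, where Bmp4 and Bmp5 were also highest. Sostdc1, an antagonist of BMP and WNT signalling, was lower in E10 AoV (0.675, 0.46 and 0.373 RPM) than in E10 AoD (log2 -1.86, adjusted p = 2.38e-06, limma), and Cer1, an early embryonic antagonist, was at 0.228 to 1.52 RPM in E9 AoV and at 0 in the 3 libraries of E10 AoV. Here 3 reads are worth at most 0.0892 RPM.

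Among the other BMP and GDF ligands 13 of 15 were tested, and 2 rose and 5 fell from E9 AoV to E10 AoV, while 5 were higher and 2 lower in E10 AoV vs E10 AoD, with medians of -0.21 and 0.14. Gdf6, a ligand of joint and eye development, was ventral at E10.5, at 19.4, 21.8 and 21.9 RPM in E10 AoV against 0.897, 1.0 and 0.971 RPM in E10 AoD (log2 4.32, SE 0.18, adjusted p = 2.9e-10, limma). At E9.5 it was ventral as well, at 19.6 to 25.6 RPM in E9 AoV against 2.27 to 4.46 RPM in E9 AoD. The ridges held 8.65 to 10.8 RPM. The ligands of ACVRL1 were at no more than 6.28 RPM in any library. Gdf2, which encodes BMP9, fell from 4.68 to 6.28 RPM ventrally at E9.5 to 0.752 to 1.07 RPM in E10 AoV (log2 -2.40, adjusted p = 7.54e-05, limma). Bmp10 was at 0.98 to 1.53 RPM in E9 AoV and at no more than 0.0512 RPM ventrally at E10.5, under the worth of 3 reads. The list of gut endoderm and liver was also highest in E9 AoV, and its part in the levels of Gdf2 and Bmp10 was not tested. Bmp3, a ligand that opposes other BMPs, was higher dorsally, at 2.84 to 3.48 RPM in E10 AoD against 0.486 to 0.862 RPM in E10 AoV (log2 -2.14, adjusted p = 1.05e-06, limma).

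Of 14 other receptors and co-receptors 5 rose and 3 fell from E9 AoV to E10 AoV, and 5 were higher and 3 lower in E10 AoV vs E10 AoD, with medians of 0.074 and -0.037. Amhr2, the type II receptor of anti-Müllerian hormone, stood at 17.2, 19.2 and 15.2 RPM in E10 AoV and 18.6, 20.0 and 23.2 RPM in the ridges but at no more than 1.28 RPM elsewhere (log2 4.58 against E9 AoV, adjusted p = 5.11e-09, limma). Acvr1c, the nodal receptor ALK7, rose from 0.214 to 0.348 RPM to 1.35 to 2.33 RPM in the ventral tissue, and Hfe2, the co-receptor hemojuvelin, was lower in E10 AoV than in E10 AoD by 2.95 on the log2 scale (adjusted p = 8.31e-07, limma). The coelomic and gonadal list was high in the same 2 groups, and its part in the level of Amhr2 was not tested.

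Of 8 SMADs and regulators 4 rose and 1 fell ventrally with stage, and 3 were higher and none lower in E10 AoV vs E10 AoD (medians 0.24 and 0.081). Of 14 known BMP-SMAD targets 10 rose and 4 fell ventrally with stage, and 9 were higher and 2 lower in E10 AoV vs E10 AoD (medians 0.69 and 0.65). Smad6, an inhibitory SMAD counted in both lists and named after its values were seen, was 91.1, 96.6 and 99.6 RPM in E10 AoV against 47.8, 51.1 and 47.8 RPM in E10 AoD (log2 0.97, SE 0.104, adjusted p = 3.16e-06, limma), and it was higher ventrally at E9.5 as well (log2 1.26, adjusted p = 1.7e-07), with 56.1, 60.0 and 54.2 RPM against 25.0, 27.7 and 18.9 RPM. At the 2-fold threshold the targets were called in both directions with stage, 2 higher and 3 lower, beside 11% of all genes. The 2 called higher are not named here, and most of the list rose, as counted above. The 3 lower ones, also named after their values were seen, were Msx1, Msx2 and Tbx3, transcription factors of patterning. In the ventral tissue Msx1 fell from a mean of 49.7 to 9.48 RPM (log2 -2.38, adjusted p = 7.96e-08), Msx2 from 28.5 to 6.30 RPM (log2 -2.16, adjusted p = 2.32e-08) and Tbx3 from 69.1 to 16.1 RPM (log2 -2.10, adjusted p = 2.99e-08, limma). Between the same groups the mean sum of the gut endoderm and liver list went from 712 to 37.3 RPM. That of the gut mesenchyme list went from 418 to 159 RPM. The part of these lists in the falls of Msx1, Msx2 and Tbx3 was not tested. Against E10 AoD, Msx1 and Msx2 were higher in E10 AoV by 1.59 and 1.51 on the log2 scale (adjusted p = 5.19e-06 and 9.41e-07) and Tbx3 was lower by 0.82 (adjusted p = 0.000362, limma).

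As a description, with no test, the genes nearest in pattern over the 15 libraries were sought among 15635 genes. For Bmp2 these were Twist2 (r = 0.969) and Tgm2 (r = 0.963), for Bmp4 Limk2 (r = 0.987) and Cd151 (r = 0.984), and for Bmp5, after its antisense partner, Emilin3 (r = 0.983). For Bmp6 they were Jak3 and Rap1b (both r = 0.926) and for Bmp7 Tmem59l (r = 0.957) and Tbx3 (r = 0.939). Among the receptors they were Cggbp1 and Trim35 for Bmpr1a (r = 0.984 and 0.979), Kank4 and A430107O13Rik for Bmpr1b (r = 0.954 and 0.944), Zc4h2 and 5830404H04Rik for Acvr1 (r = 0.966 and 0.964), Efna1 and Nos3 for Acvrl1 (r = 0.976 and 0.968) and Ndst1 and Atf7 for Bmpr2 (r = 0.972 and 0.968). Between members the highest values were those of Bmpr1a with Bmpr2 (r = 0.934), Bmp5 with Bmp6 and Bmp2 with Acvrl1 (r = 0.886), and the lowest was that of Bmp5 with Bmp7 (r = -0.632). The libraries share stage, tissue and scaling, so these values describe the 5 groups more than the genes.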

How the data were processed

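Single-end reads of 50 bases were aligned by the authors to NCBI37/mm9 with TopHat and Bowtie 0.12.3 and counted over Ensembl genes in GeneProf, which divided ambiguous reads among genes. The deposited values are RPM, reads per 1000000 assigned to genes, rounded by the authors to 3 significant digits and not adjusted for length. The 12 deposited columns of the authors' own comparisons, fold changes and adjusted p-values from DESeq, were not used. Whole reads could not be recovered (59.8% to 62.5% of low values were whole multiples within 0.05 reads), so depth was taken from the step and no count test was run.

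Genes with at least 0.5 RPM in 1 sample were tested with limma 3.58.1 (R 4.3.3) after the transform log2(RPM + 0.1), with 1 mean per group over all 15 samples, with an intensity trend and Benjamini-Hochberg adjustment over 18553 genes, and the fit was tested on simulated data. Lengths and positions came from a GENCODE annotation of NCBIM37, which held 95.3% of the IDs and is another release than the one the authors counted over, so exon lengths may differ, and promoter windows from RefSeq (GRCm38.p6). The members and lists were chosen with earlier results of these data known. All members were named, as were the 3 pathway genes with the largest rise and fall among those called in E10 AoV vs E9 AoV and E10 AoV vs E10 AoD, antagonists and co-receptors beside a member's result, and the 2 genes nearest in pattern. Replicate numbers were checked by the correlation of deviations from the group means over genes. Same-numbered libraries of E9 AoD and E9 AoV deviated together in all 3 pairs (r = 0.19 to 0.452, against -0.345 to -0.0191 for unlike numbers), and these groups were also fitted with the number as a block. This pairing comes from the data, since the labels do not state it. Alternatives were another pseudocount, no filter, other scalings, no trend, a replicate block, only the groups compared, transcript length and leaving out each library.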

Additional observations from a re-analysis of the deposited data

Results flagged for a closer look

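For 4 of the 10 genes the stage change, E10.5 against E9.5, differed between the ventral and the dorsal tissue, by a test of that difference in the limma fit. For Bmp2 it was -3.10 on the log2 scale (adjusted p = 2.53e-08), with all 3 ventral libraries lower and all 3 dorsal libraries higher at E10.5 than at E9.5. For Bmpr1b it was -2.07 (adjusted p = 1.62e-05), again with the libraries of the 2 sides moving in opposite directions. For Acvrl1 it was -1.15 (adjusted p = 1.04e-05), where the dorsal level rose by 0.96 and the ventral change of -0.19 did not pass. For Bmp7 it was -0.72 (adjusted p = 0.000685), where the ventral level fell and the dorsal change of -0.17 did not pass. The share of all tested genes that passed this test was 28.1%.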

How the results depend on the processing

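Library pools and not embryos were compared, the counting error of the 10 genes was at most 10.1% in any library, and levels per length rest on the annotated exons. A replicate block over all 15 samples moved no member across the threshold and no count of called genes by over 1.5 times, with 2045 genes called in E10 AoV vs E9 AoV. The block in a fit of E9 AoV and E9 AoD only, chosen after seeing the data, gave 2186 called genes in place of 2187. In this fit Bmpr1a and Bmpr2 passed without being called, and no other member moved across the threshold. For the other pairs of groups at most 2 of 3 same-numbered pairs of libraries deviated together by over 0.1, so by this cut-off the numbers were not taken to pair samples there. The cut-off cannot exclude pairing at E10.5. Embryos of that stage were dissected into AoD, AoV and UGR, and the labels do not say which libraries share embryos. For E10 AoV and E10 UGR, however, same-numbered libraries correlated at r = 0.0889 to 0.168, against -0.114 to -0.0217 for unlike numbers. In the remaining pairs of groups these 2 ranges overlapped. A paired fit of only the E10.5 groups was not run, so the block over all 15 samples is the only check of pairing there.

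A pseudocount of 1 RPM, which by construction shrinks the fold changes of low genes, lowered the genes called to 1104 from 2046 for E10 AoV vs E9 AoV, 1020 from 1874 for E10 AoV vs E10 AoD, 1281 from 2337 for E10 AoD vs E9 AoD, 1196 from 2187 for E9 AoV vs E9 AoD, 735 from 1404 and 1143 from 2100 for E10 AoV and E10 AoD vs E10 UGR, and 1174 from 2044 for the stage by position difference, and moved no member across the threshold. Quantile normalization lowered the share of higher genes among those called in E9 AoV vs E9 AoD from 70.6% to 59.4%. It called 2 members in E10 AoV vs E9 AoV in place of 1, Bmp2 being added at -1.004. It turned the sign of Bmpr1b in E9 AoV vs E9 AoD (-0.015) and of Bmpr2 in the stage by position difference (0.019), neither past the threshold. The cause was not tested.

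Leaving out 1 library at a time gave 0 to 2 members called in E10 AoV vs E9 AoV: 0 without E9 AoV replicate 1 or E10 AoV replicate 3, where Bmp5 fell below 2-fold, and 2 without E9 AoV replicate 2 or E10 AoV replicate 1. Signs turned, all for values that had not passed, for Bmp4 in E10 AoD vs E9 AoD (-0.12 to 0.30), Bmpr1b in E9 AoV vs E9 AoD (-0.023 to 0.28), Bmpr2 in E10 AoD vs E10 UGR (-0.15 to 0.20), and in the stage by position difference for Bmpr2 (-0.29 to 0.18), Acvr1 (-0.065 to 0.11), Bmp6 (-0.13 to 0.095) and Bmpr1a (-0.042 to 0.15). Acvr1 in E10 AoV vs E10 UGR did not pass without E10 AoV replicate 1 or 2 or E10 UGR replicate 2 or 3 (adjusted p up to 0.0907, limma). Differences that had not passed did so for Bmp6 in E10 AoD vs E10 UGR without E10 AoD replicate 2 (adjusted p = 0.0489), for Acvrl1 in E10 AoV vs E9 AoV without E9 AoD replicate 3 (0.0344) or with only the groups compared (0.0342), and with only the groups compared for Bmpr2 in E10 AoV vs E10 UGR (0.00779, limma). With the length of the longest transcript 18 of 50 shares moved by more than 1 SD.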
